A study of Mus musculus with 40 samples.

Results

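Genes of the cell cycle, of DNA replication and of mitosis were followed across mouse cell lines, primary cells and tissues on nylon filter arrays. The members were all spots whose platform annotation gives exactly 1 gene and whose symbol belongs to the MCM, CDC, CDCA, CDK, CENP, ORC, primase, RFC, kinesin, BUB, MAD2, aurora or polo-like families, to the cyclins A, B, D and E or to the DNA polymerases alpha, delta and epsilon, together with Pcna, Mki67, Ezh2 and Tacc3. Earlier results of these data were known when the members were chosen. The choice went by name alone and used no measured value, except that a gene with several spots was represented by its brightest one. It gave 61 spots and 58 genes, out of 5760 spots and 3284 named genes. Sorted into roles by symbol alone, 5 members fell under licensing and initiation of replication: Mcm3ap, Mcm4, Mcm9, Orc3 and Orc4. A further 5 fell under the replication fork, 5 under the cyclins, kinases and phosphatases of the cycle, and 25 under mitosis. A symbol does not show that a gene works in that role. Mki67 and Ezh2 stand alone, and 16 members caught by their names have other roles. The 58 members include no aurora or polo-like kinase and no cyclin A, B or E.

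A dividing cell loads the MCM helicase onto origins marked by the origin recognition complex, copies its DNA with polymerases held by the Pcna clamp, and then separates the chromosomes on the spindle. Kinetochores built on CENP proteins hold the chromosomes, the checkpoint proteins Mad2 and BubR1 delay their separation until all are attached, and the anaphase-promoting complex with Cdc20 then starts it. Many of these genes are transcribed mainly in cycling cells, under E2F in S phase and under MuvB complexes at G2 and mitosis. Muscle fibres, fat cells and most hepatocytes have left the cycle.

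The 40 arrays, 1 sample each, were hybridized with 33P-labelled cDNA. The differentiated groups were C2C12 myoblasts held at confluence in horse serum for 7 days (2 samples), 3T3-F442A cells kept after confluence for 7 days with rosiglitazone (3), adipocytes isolated from inguinal white fat with collagenase (3), whole tibialis muscle (2) and whole liver (2). Primary cells were taken 24 h after plating and were inguinal stroma-vascular cells (3) and peritoneal macrophages freed of non-adherent cells (3). The lines kept at low density, away from confluence, were preadipocytes (5 samples of the 4 lines 3T3-L1, 3T3-F442A, Ob1774 and Hgfu), proliferating C2C12 myoblasts (3), C3H-10T1/2 mesenchymal cells (3), J774 (2) and Raw 264 (3) macrophages, and embryonic stem (ES) cells ZIN40 with LIF (3). ZIN40 cells without LIF, which lets them differentiate, gave 3 more arrays. Strain, sex and age of the animals are not given in the labels, and each line other than the preadipocytes is a single line.

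Levels are log2 of the quantile-normalized spot intensity plus an offset of 36370, so a fold change is a difference of such levels and is smaller than the true change of a dim spot. Median spot intensity ran from 18871 to 132228 over 37 arrays. It ran from 941 to 42938 on the 3 arrays of ES cells without LIF, which carry intensities of another kind. Those 3 arrays stood on neither side of any comparison, but they shared the normalization, the offset and the fit. All 5 measured liver markers were highest in liver and 6 of 7 skeletal muscle markers in tibialis, while Tnnc1 was highest in C2C12 cells at day 7. The liver marker Ttr hardly set liver apart, at 16.682 in liver against 16.677 in C2C12 cells at day 7. Of 5 macrophage markers 3 were highest in peritoneal macrophages, with Fcer1g highest in Raw 264 and Vav1 in ES cells with LIF. Retn and Pnpla2 were highest in inguinal adipocytes, Lpl in differentiated 3T3-F442A cells and Cidec in tibialis. No embryonic stem marker of the list was measured.

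The members spread over the whole range of brightness. By mean level over all arrays, 15 of the 58 fell in the lowest of 4 equal classes of all spots, 14 in the second, 18 in the third and 11 in the highest. The spot for Kif3a, a motor of intraflagellar transport, stood in the top 7% of every array, as 1 of 271 such spots, 231 of which have no gene. Over the 13 groups other than ES cells without LIF, the difference between a member's highest and lowest group mean had a median of 0.38 and ran from 0.16 for Tacc3 to 2.03 for Cdca7l, against a median of 0.41 over all 5760 spots. It exceeded 1 for Cdca7l and Kif18b, 2 of 58 members, and for 331 of all spots. The members did not move as a block: over the 13 group means, the correlation between a pair of members had a median of 0.015 (1653 pairs, as a description), and 14 pairs exceeded 0.7. In the 3 genes with 2 spots, the spots of a gene correlated over the 40 arrays at 0.142 for Kif14, 0.331 for Kif26a and 0.320 for Rfc5, as a description.

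In the differentiated groups 5 mitosis genes were called lower than in the low-density lines, and Cdca7l and Mki67 were called higher. The mean of the 5 differentiated groups was set against the mean of the 6 groups of low-density lines, with 12 and 18 samples after the pair of 3T3-L1 samples was averaged; ranges of levels are given over all 19 arrays of the lines. At an adjusted p under 0.05 (limma across all spots, Benjamini-Hochberg), 7 of 58 members were called, or 12.1%, against 7.15% of all spots. Of the members 2 were higher and 5 lower, while 3.19% of all spots were higher and 3.96% lower. These p-values measure the spread of samples within groups. The spread among the groups of a side does not enter them. At an unadjusted p under 0.05 the share was 19% for the members and 19% for all spots. With median scaling 3 members kept their calls (Cdca7l, Kif20a and Cenpm), and without scaling of the arrays none did. The median change was 0.0025 over members and 0.0098 over all spots. Of the 25 mitosis genes 18 lay below zero, with a median of -0.04, 5 were called lower and 1 higher; of all 58 members 29 lay below zero, and of all spots 45.5%. In whole tissues and cultures such a difference does not tell fewer cells of a type from less RNA per cell.

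Kif20a, a mitotic kinesin of the central spindle needed for cytokinesis, had levels of 16.04, 16.23 and 16.67 (lowest, median and highest) in differentiated samples, against 16.17, 16.59 and 17.25 in low-density lines. The ranges overlapped. All samples of the differentiated muscle and fat cell lines, 1 adipocyte sample and 1 liver sample at 16.67 lay inside the range of the low-density lines. The other liver sample, at 16.14, lay below that range, as did the other adipocyte samples and all tibialis samples. Kif20a fell by 0.34 ± 0.07 on the log2 scale (SE, adjusted p = 7.94e-04). The gene next to it in the table of spots, Zdhhc16, a palmitoyltransferase gene, had -0.20 (adjusted p = 0.0460). With a running median along the table taken out, Kif20a had -0.36 (adjusted p = 7.11e-05). The layout of the filter is not given, and the part of spots that lie next to it on the filter was not tested.

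Cenpm and Cenpx build the inner kinetochore, Cenpx also serving in DNA crosslink repair. Cenpm had 16.00, 16.40 and 16.62 in differentiated samples and 16.24, 16.60 and 16.92 in the lines, a change of -0.24 ± 0.06 (adjusted p = 0.00625). Cenpx had 16.29, 16.55 and 16.88 in differentiated samples and 16.29, 16.91 and 17.42 in the lines, a change of -0.30 ± 0.08 (adjusted p = 0.0103). In both cases the medians were apart and the ranges overlapped; the highest Cenpm levels, 16.79, 16.82 and 16.92, were those of ES cells with LIF, and the highest Cenpx level, 17.42, was that of the Ob1774 line.

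Mad2l1, the spindle checkpoint protein that inhibits Cdc20, had 16.04, 16.55 and 17.00 in differentiated samples and 16.47, 16.88 and 17.08 in the lines (-0.22 ± 0.07, adjusted p = 0.0427). Tibialis stood apart from the other differentiated groups, with Mad2l1 at 16.99 and 17.00, among the highest samples of all. When tibialis was left out of the mean, the change was -0.32 (adjusted p = 0.00487). Cdc27, a subunit of the anaphase-promoting complex, had 16.00, 16.30 and 16.48 in differentiated samples and 16.18, 16.41 and 16.72 in the lines (-0.18 ± 0.06, adjusted p = 0.0393). The calls of Mad2l1 and Cdc27 were lost in 20 and 13 of the 31 fits that left out 1 sample, whereas Kif20a, Cenpm and Cenpx kept theirs in all 31.

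The rise of Cdca7l rested on tibialis muscle, and that of Mki67 did so in part. Cdca7l, caught by its name among the mitosis genes, encodes a Myc-binding transcriptional regulator. It had 16.17, 16.29 and 18.28 in differentiated samples and 15.98, 16.30 and 16.52 in the lines, a rise of 0.41 ± 0.06 (adjusted p = 1.11e-05). Without tibialis the change was 0.05 (adjusted p = 0.781). Mki67, whose protein Ki-67 coats mitotic chromosomes and is a standard marker of proliferation, had 16.44, 16.69 and 17.16 in differentiated samples and 16.21, 16.45 and 16.84 in the lines, a rise of 0.25 ± 0.07 (adjusted p = 0.0117). Its change without tibialis was 0.15 (adjusted p = 0.251), and without inguinal adipocytes 0.23 (adjusted p = 0.0509). The 2 genes before Mki67 in the table moved in the same direction, Unc119b by 0.43 (adjusted p = 4.43e-04) and Dapp1 by 0.20 (adjusted p = 0.0167), and with a running median along the table taken out Mki67 had 0.18 (adjusted p = 0.124).

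Pcna, the sliding clamp of the replication fork, had 16.32, 16.73 and 16.92 in differentiated samples and 16.34, 16.92 and 17.29 in the lines. Its change was -0.20 ± 0.08 (adjusted p = 0.158), with a 95% interval from -0.37 to -0.03. Ezh2, the histone methyltransferase of Polycomb complex PRC2, had 0.02 ± 0.05 (adjusted p = 0.891) and an interval from -0.09 to 0.13. Tacc3, which stabilizes spindle microtubules, had -0.01 ± 0.05 (adjusted p = 0.960) and an interval from -0.10 to 0.09. The intervals of Ezh2 and Tacc3 include zero, and a change on this scale as large as that of Kif20a lies outside both. These intervals hold only the spread within groups. The Tacc3 spot was dim, at percentile 18.7 of mean level, so its true change can be larger than its value.

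**Figure D1:**
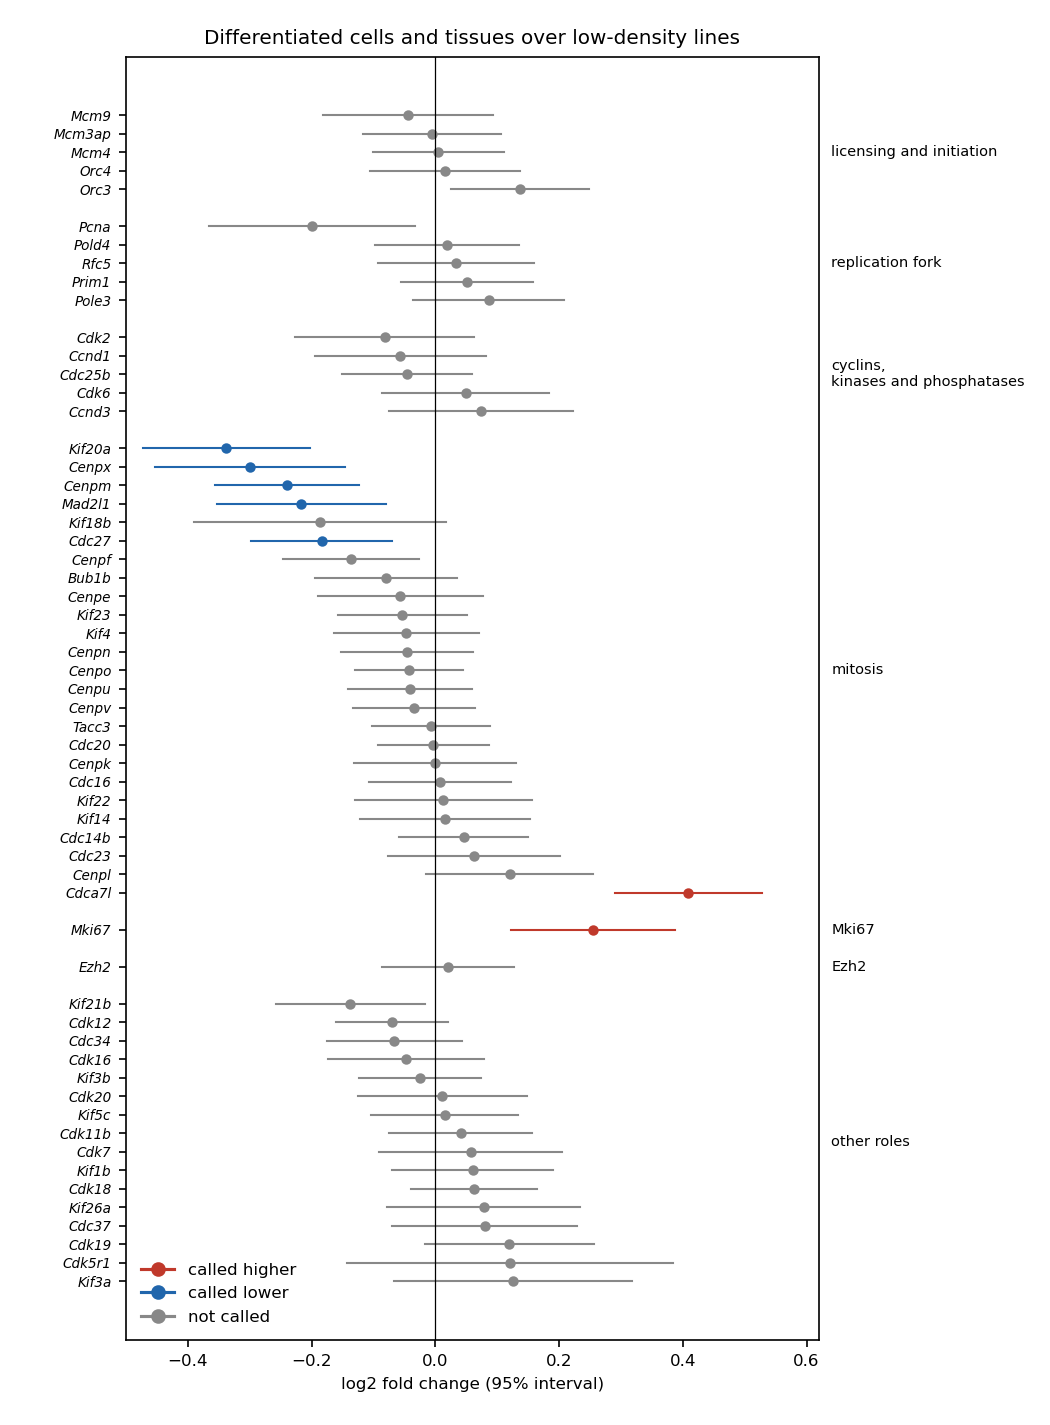
Log2 fold change of the 58 genes in differentiated cells and tissues over low-density lines, grouped by role from top to bottom. Points are the limma estimates, horizontal bars their 95% intervals, blue points were called lower and red points higher at an adjusted p under 0.05. The 5 blue points, led by Kif20a at -0.34, are all mitosis genes, and the red points are Cdca7l at 0.41 and Mki67 at 0.25.

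Genes sorted under replication had no call in this comparison. Among the 5 genes sorted under licensing, the changes ran from -0.04 to 0.14. Orc3, a subunit of the origin recognition complex, was highest at 0.14 ± 0.05 (adjusted p = 0.143). Mcm4, a subunit of the replicative helicase, lay between 16.36 and 16.68 in the 12 differentiated samples, and between 16.23 and 16.80 in the lines. Among the 5 fork genes, 4 lay above zero, the highest being Pole3, a histone-fold subunit of polymerase epsilon, at 0.09. The D cyclins Ccnd1 and Ccnd3, the kinases Cdk2 and Cdk6 and the phosphatase Cdc25b ran from -0.08 to 0.07. Among the 16 members with other roles, such as the transport kinesins and the transcriptional kinases Cdk7, Cdk12 and Cdk19, none was called and 11 lay above zero.

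Mitosis genes without a call ran from -0.19 to 0.12. Kif18b, a kinesin that shortens astral microtubules, had -0.19, and Cenpf, a kinetochore protein of G2 and mitosis, had -0.14 ± 0.05 (adjusted p = 0.135). Cdc20 (0.00), which activates the anaphase-promoting complex, the chromokinesins Kif4 (-0.05) and Kif22 (0.01), and the checkpoint kinase gene Bub1b (-0.08) lay close to zero. The spots of Cdc20, Kif4 and Bub1b were dim, at percentiles 14.9, 17.1 and 14.8 of mean level. Their true changes can be larger than these values.

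Other genes of the pathway were read from a list of 101 S phase and mitosis genes outside the members, of which 21 were measured. In differentiated cells and tissues 4 of them were lower and none higher, against 3.96% and 3.19% of all spots, and 14 lay below zero, against 45.5% of all spots. Cks1b, which links cyclin-dependent kinases to their substrates, fell by 0.23 ± 0.05 (adjusted p = 0.00376). Mis12 and Spc25 of the outer kinetochore fell by 0.26 ± 0.06 (adjusted p = 0.00596) and 0.28 ± 0.07 (adjusted p = 0.0109). E2f4, the E2F factor that represses cycle genes in resting cells, fell by 0.28 ± 0.07 (adjusted p = 0.0139). Of 22 genes that brake the cycle, 7 were measured and none was called in any of the 10 comparisons; the CDK inhibitor gene Cdkn1a had 0.03 ± 0.08 and the retinoblastoma gene Rb1 0.17 ± 0.07 (adjusted p = 0.206) in differentiated cells and tissues.

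Promoters of the members were read from RefSeq on GRCm38.p6, as 250 bases before to 50 after the start. A promoter was found for 51 of the 58 members, 60 promoters in all. Both strands were searched for TTTGAA, the cell cycle homology region bound by MuvB complexes, for the E2F words TTTCCCGC, TTTGGCGC and TTTCGCGC, and for CCAAT, the NF-Y word. CCAAT was present in 63.3% of the members' promoters and in 37.4% of all 32851 promoters, and any of the 3 E2F words in 8.33% and 1.84%. TTTGAA was present in 20% of the members' promoters and 17.9% of all. The promoters of 4 called members are shown to set these words beside the changes, 5′ to 3′ on the gene's strand with each match on either strand in capitals. Cenpm lies at chr15:82244287-82244586 (minus strand), Mad2l1 at chr6:66534971-66535270 (plus), Kif18b at chr11:102925075-102925374 (minus) and Mki67 at chr7:135716330-135716629 (minus).
Cenpm: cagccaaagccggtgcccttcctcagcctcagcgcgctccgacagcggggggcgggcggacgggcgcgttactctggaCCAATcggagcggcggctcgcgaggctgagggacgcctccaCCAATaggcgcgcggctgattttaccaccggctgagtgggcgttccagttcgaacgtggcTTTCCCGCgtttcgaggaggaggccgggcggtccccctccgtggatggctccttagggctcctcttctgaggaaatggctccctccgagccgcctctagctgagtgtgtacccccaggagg
Mad2l1: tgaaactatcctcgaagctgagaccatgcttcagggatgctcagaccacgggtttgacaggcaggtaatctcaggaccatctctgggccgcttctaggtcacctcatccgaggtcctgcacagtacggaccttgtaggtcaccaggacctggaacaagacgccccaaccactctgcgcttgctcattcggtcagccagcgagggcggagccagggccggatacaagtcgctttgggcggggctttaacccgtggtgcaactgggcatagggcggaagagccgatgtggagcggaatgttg
Kif18b: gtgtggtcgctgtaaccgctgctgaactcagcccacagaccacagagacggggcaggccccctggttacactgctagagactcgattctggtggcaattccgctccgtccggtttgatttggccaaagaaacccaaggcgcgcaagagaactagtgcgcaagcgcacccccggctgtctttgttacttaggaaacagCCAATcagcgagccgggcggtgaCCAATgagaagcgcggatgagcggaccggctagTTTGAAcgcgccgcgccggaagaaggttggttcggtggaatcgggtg
Mki67: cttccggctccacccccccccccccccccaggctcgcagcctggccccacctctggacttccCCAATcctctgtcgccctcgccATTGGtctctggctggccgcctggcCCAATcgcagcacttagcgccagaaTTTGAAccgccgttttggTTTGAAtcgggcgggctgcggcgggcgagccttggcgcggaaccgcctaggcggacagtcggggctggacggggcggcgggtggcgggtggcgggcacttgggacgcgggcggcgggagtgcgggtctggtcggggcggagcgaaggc
The Cenpm window holds 1 TTTCCCGC and 2 CCAAT, the Kif18b window 1 TTTGAA and 2 CCAAT, and the Mki67 window 2 TTTGAA and 3 CCAAT. None of these words is in the Mad2l1 window, although Mad2l1 and Cenpm were both called lower. A match is a run of letters and was not tested as a binding site.

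Tibialis muscle differed from proliferating C2C12 myoblasts in 4 members, which is 6.9% of them against 2.5% of all spots. Cdca7l and Cdk19 were higher in muscle, as were 0.938% of all spots, and Kif20a and Kif18b were lower, as were 1.56%. Cdca7l had levels of 18.28 and 18.03 in tibialis, against 16.17, 16.44 and 16.30 in proliferating myoblasts, a change of 1.85 ± 0.14 (adjusted p = 2.03e-11). No other sample of any group exceeded 16.90, which was 1 of the 2 C2C12 samples at day 7. The 4 spots nearest to it in the table had changes between -0.21 and 0.07 in tibialis over C2C12.

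Kif20a had 16.05 and 16.11 in tibialis, against 16.67, 17.25 and 16.93 in proliferating myoblasts (-0.87 ± 0.16, adjusted p = 0.00132). All muscle samples lay below all myoblast samples. With median scaling Cdca7l alone of the 4 members kept its call, and Kif20a had -0.72 (adjusted p = 0.259). Cdk19, a kinase of the Mediator complex, had 17.31 and 16.86 in tibialis and 16.22, 16.31 and 16.39 in proliferating myoblasts (0.78 ± 0.16, adjusted p = 0.00480). The muscle samples were apart by more than the myoblast samples, and without tibialis replicate 1 Cdk19 had 0.56 (adjusted p = 0.274). Kif18b had 16.47 and 16.29 in tibialis and 17.08, 17.58 and 17.04 in proliferating myoblasts (-0.86 ± 0.24, adjusted p = 0.0476). Its call was lost in 4 of the 5 fits that left out a sample, and its change turned to 0.08 in unscaled values, in which the median of all spots moved by 0.94. Snf8, an endosomal sorting gene 2 rows away, had -1.14 (adjusted p = 0.101).

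Mki67 had 17.07 and 17.16 in tibialis and 16.45, 16.84 and 16.42 in proliferating myoblasts, with no overlap and a change of 0.55 ± 0.16 (adjusted p = 0.0513). Unc119b, 1 row before it, had 1.21 (adjusted p = 2.47e-04) and Dapp1, 2 rows before, 0.49 (adjusted p = 0.0313) in the same comparison; their part in the level of Mki67 was not tested. Skeletal muscle markers averaged 18.27 to 18.41 in tibialis and 16.67 to 16.76 in proliferating myoblasts, while the 5 measured macrophage markers averaged 16.47 to 16.54 in tibialis and 16.26 to 16.37 in proliferating myoblasts. The single measured erythroid marker, Hbb-b1, lay at 16.71 to 17.11 in tibialis, against 16.17 to 16.29 in proliferating myoblasts, and the single matrix marker, Timp2, at 16.35 to 16.43 in tibialis, against 17.78 to 18.92 in proliferating myoblasts. The 4 adipocyte markers averaged 16.80 to 16.82 in tibialis and 16.57 to 16.72 in proliferating myoblasts, and Cidec among them 17.18 in tibialis and 16.65 in proliferating myoblasts. The 5 liver markers averaged 16.66 to 16.70 in tibialis and 16.52 to 16.53 in proliferating myoblasts, and Fgb among them 17.45 in tibialis and 16.68 in proliferating myoblasts. The lymphocyte marker Cd79b lay at 17.23 to 17.31 in tibialis and 16.79 to 17.11 in proliferating myoblasts, and the endothelial marker Cdh5 at 16.14 to 16.22 in tibialis and 16.24 to 16.52 in proliferating myoblasts. How far other cells of whole muscle contribute to these levels was not tested.

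C2C12 cells at day 7 had no called member against proliferating C2C12 cells, where 0.226% of all spots were called, and 5 members at an unadjusted p under 0.05. Kif20a had 16.53 and 16.20 at day 7, against 16.67, 17.25 and 16.93 in proliferation, without overlap (-0.58 ± 0.16, adjusted p = 0.165). Cenpl, another inner kinetochore gene, had 17.17 and 17.03 at day 7 and 16.61, 16.78 and 16.48 in proliferation (0.48 ± 0.16, adjusted p = 0.278). The 2 genes thus lay on opposite sides of zero, and the 25 mitosis genes split into 15 below and 10 above, with 29 of all 58 members and 48.5% of all spots below zero. Cdca7l, at 16.47 and 16.90 at day 7, against 16.17, 16.44 and 16.30 in proliferation, had 0.38 ± 0.14 (adjusted p = 0.317), and Prim1, the catalytic subunit of primase, 0.32 ± 0.13 (adjusted p = 0.342). Mki67 had -0.11, Pcna -0.22 and the D cyclin Ccnd3 0.29, none of them past the test.

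Differentiated 3T3-F442A cells had no called member against the preadipocyte lines either (0.156% of all spots), and 9 members at an unadjusted p under 0.05. The largest value was that of Kif18b, with 17.94, 17.78 and 16.98 at day 7, against 16.30 in 3T3-F442A, 16.73 in Ob1774, 17.44 in Hgfu and 16.74 and 16.75 in 3T3-L1 (0.76 ± 0.20, adjusted p = 0.0999). The third day 7 sample lay inside the range of the lines. Kif22 had 0.40 ± 0.14 and Bub1b 0.30 ± 0.11 on the same side, while Kif23, a kinesin of the central spindle, had -0.28 ± 0.10 and Kif20a -0.34 ± 0.13 (adjusted p between 0.300 and 0.371 for these 4). Kif20a was at 16.27, 16.32 and 16.32 at day 7, below each of the preadipocyte samples, whose lowest was 16.42. Rosiglitazone and differentiation cannot be told apart here, and 3 of the 4 reference lines are other lines.

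The effects of the 2 differentiations were also set against each other. The difference between them was called for 0 of the 58 members and for 0.26% of all spots, and 4 members passed at an unadjusted p under 0.05: Bub1b (0.42), Cenpl (-0.50), Cdca7l (-0.42) and Kif18b (0.65), each given as the effect in 3T3-F442A minus the effect in C2C12. This test was added after the data had been seen.

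**Figure D2:**
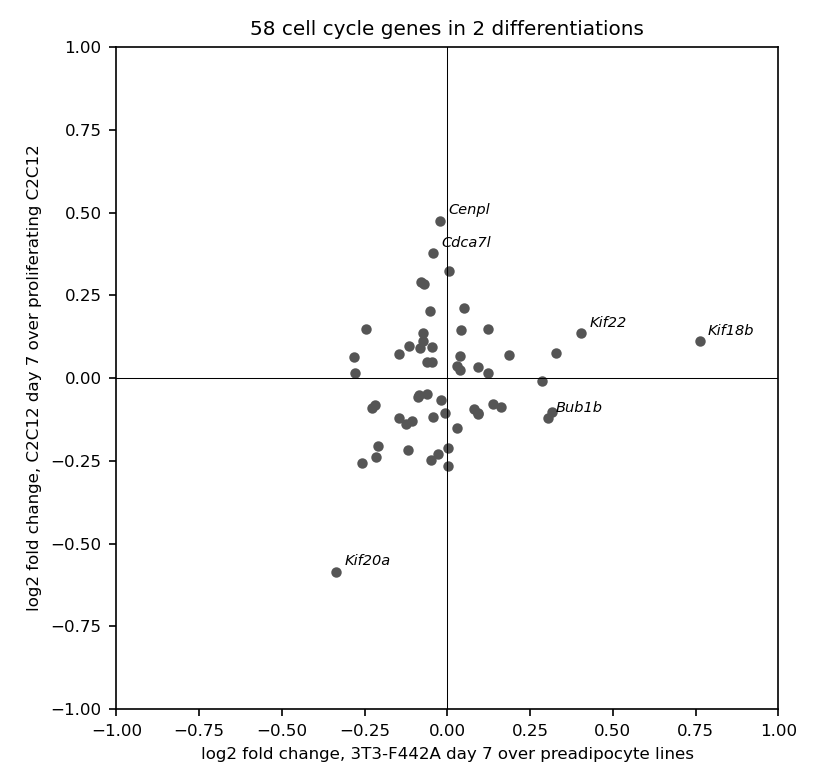
Log2 fold change of the 58 genes in 3T3-F442A cells at day 7 over the preadipocyte lines (horizontal axis) and in C2C12 cells at day 7 over proliferating C2C12 (vertical axis). Each point is a gene, and the named ones are Kif20a, Kif22 and the genes whose effects differed at an unadjusted p under 0.05. Kif20a lies below zero on both axes, at -0.34 and -0.58, while Kif18b at 0.76 lies far to the right and Cenpl at 0.48 near the top.

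Inguinal adipocytes had 1 called member against the preadipocyte lines, or 1.72% of members against 2.33% of all spots called and 1.08% called lower. Kif20a was at 16.04, 16.08 and 16.28 in adipocytes, against 16.73 and 16.42 in 3T3-L1, 16.87 in 3T3-F442A, 16.53 in Ob1774 and 16.59 in Hgfu. All adipocyte samples lay below all preadipocyte samples, and Kif20a fell by 0.51 ± 0.13 (adjusted p = 0.0373). Leaving out 1 sample ended that call in 6 of 8 fits, with changes between -0.58 and -0.43, and it had -0.51 with median scaling (adjusted p = 0.130). Cenpx had -0.48 ± 0.15 (adjusted p = 0.0813) and Mad2l1 -0.33 ± 0.13 (adjusted p = 0.198), and 18 of the 25 mitosis genes lay below zero, against 32 of all 58 members and 49% of all spots. Outside the members, E2f4 fell by 0.55 ± 0.15 in adipocytes (adjusted p = 0.0429).

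Stroma-vascular cells, the fraction of fat that holds its precursor cells, had no called member against the preadipocyte lines (0.191% of all spots). Kif20a was at 16.10, 16.18 and 16.30 in stroma-vascular cells, again below every preadipocyte sample, with -0.45 ± 0.13 (adjusted p = 0.256). This comparison shares its preadipocyte samples with the comparisons of adipocytes and of 3T3-F442A cells. Pole3 had -0.30 ± 0.12 (adjusted p = 0.532), and 18 of 25 mitosis genes lay below zero with a median of -0.05, against 36 of all 58 members and, over all spots, 52.6% and a median of -0.01.

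Between the fractions of the fat depot, stroma-vascular cells and adipocytes, no member was called, with 0.625% of all spots called. Kif18b had 16.44, 17.00 and 17.00 in stroma-vascular cells and 16.19, 16.31 and 16.45 in adipocytes, with overlap (0.50 ± 0.21, adjusted p = 0.466). Kif20a had 0.06 ± 0.14 between them, and Mki67 -0.19 ± 0.14.

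Peritoneal macrophages had no called member against the macrophage lines Raw 264 and J774, where 2.9% of all spots were called, and 4 members at an unadjusted p under 0.05. Of the 25 mitosis genes 22 lay below zero with a median of -0.07; among all 58 members 63.8% lay below zero, and among all spots 50.1%. Kif18b had 16.67, 16.43 and 16.72 in peritoneal macrophages, against 16.73, 17.01 and 16.97 in Raw 264 and 17.54 and 17.15 in J774 (-0.52 ± 0.19, adjusted p = 0.170). Ccnd1, cyclin D1 of the G1 phase, had 16.07, 16.47 and 16.44 in peritoneal macrophages, against 16.62, 16.70 and 16.49 in Raw 264 and 16.88 and 16.53 in J774 (-0.33 ± 0.13, adjusted p = 0.209). For both genes the primary samples lay below all samples of the lines, by little in each case, and neither passed the test. Cdk5r1, the activator of Cdk5 known from neurons, had 0.56 ± 0.25 and Kif3a 0.45 ± 0.18. Outside the members, Cdt1, which loads the MCM helicase, was higher in peritoneal macrophages by 0.83 ± 0.23 (adjusted p = 0.0398).

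Among the low-density lines themselves no member was called. ES cells with LIF, set against C3H-10T1/2 and preadipocyte lines, had 0.226% of all spots called. Cdk7, the kinase that activates other CDKs and also belongs to the transcription factor TFIIH, had 16.84, 16.92 and 16.78 in ES cells, against 16.59, 16.44 and 16.44 in C3H-10T1/2 and 16.11 to 16.79 in the preadipocyte samples (0.38 ± 0.13, adjusted p = 0.547). Cenpm had 0.25 ± 0.10 (adjusted p = 0.922) and Prim1 0.24 ± 0.10, also short of the test. Macrophage lines, set against the same lines, had 1.08% of all spots called. Kif20a had 16.43, 16.51 and 16.23 in Raw 264 and 16.36 and 16.39 in J774, against 16.93, 16.86 and 16.59 in C3H-10T1/2. In the preadipocyte lines, the other part of the reference, Kif20a averaged 16.64 ± 0.15 (SD, n = 4). Samples of the preadipocyte lines overlapped those of Raw 264. The change of Kif20a was -0.34 ± 0.10 (adjusted p = 0.115). Kif22 had 0.30 ± 0.11, Ezh2 0.20 ± 0.08 and Cenpk, of the inner kinetochore, -0.28 ± 0.10 (adjusted p between 0.183 and 0.249). Outside the members, Mis12 was higher in macrophage lines by 0.41 ± 0.10 (adjusted p = 0.0254).

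**Figure D3:**
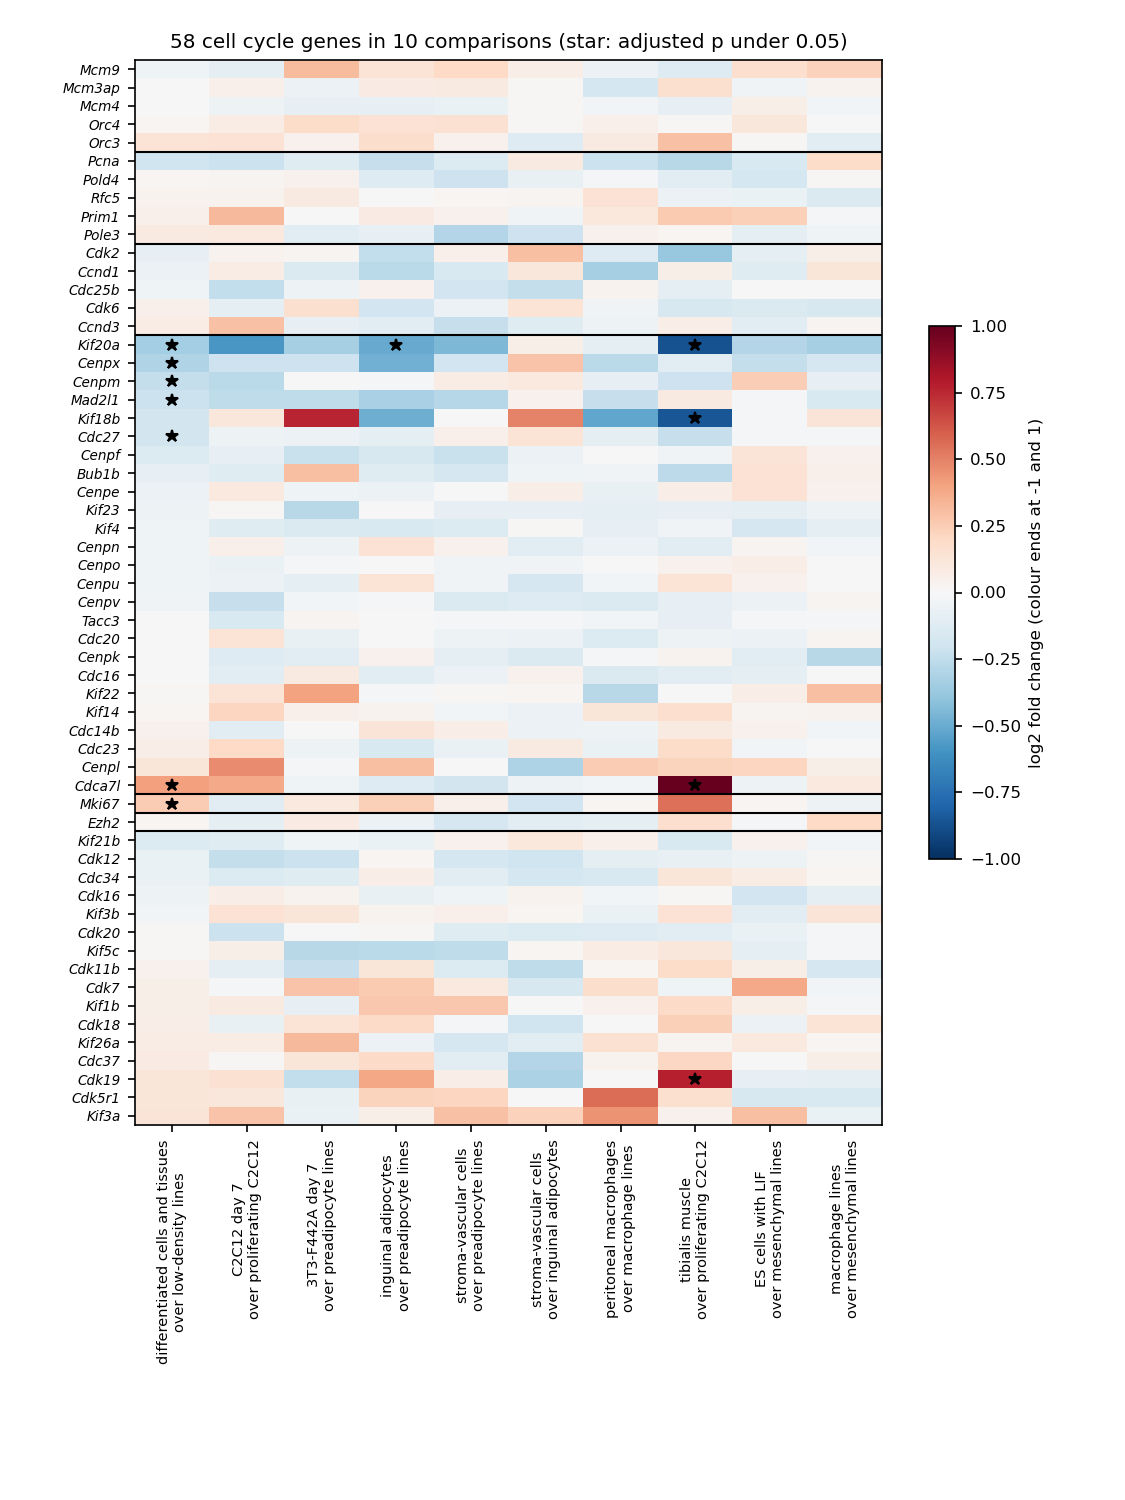
Log2 fold change of the 58 genes (rows, ordered by role, with black lines between roles) in the 10 comparisons (columns). Red is higher and blue lower in the group named first, colours end at -1 and 1, and stars mark an adjusted p under 0.05. Of 12 stars 3 lie in the row of Kif20a, and 7 in the first column.

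Kif20a had the most calls of the 58 members, 3 of 10 comparisons, all of them lower. These calls are not independent. The comparison of differentiated cells and tissues over low-density lines contains every group of the other comparisons in which Kif20a was called. Its group means ran from 16.08 ± 0.04 in tibialis (SD, n = 2), 16.13 ± 0.13 in inguinal adipocytes (n = 3) and 16.19 ± 0.10 in stroma-vascular cells (n = 3) to 16.64 ± 0.15 in the preadipocyte lines (n = 4), 16.79 ± 0.18 in C3H-10T1/2 (n = 3) and 16.95 ± 0.29 in proliferating C2C12 (n = 3). Liver (16.40 ± 0.38) and C2C12 cells at day 7 (16.36 ± 0.24) lay near the macrophage lines (16.39 ± 0.14 in Raw 264 and 16.37 ± 0.02 in J774) and ES cells with LIF (16.42 ± 0.23), and these neighbours did not differ beyond their spread. The members whose 13 group means resembled those of Kif20a most were Cdk2 (r = 0.523), Kif21b (0.519) and Bub1b (0.50), given as a description.

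ES cells without LIF were compared with ES cells with LIF only by rank of the levels, because their intensities are of another kind. All 3 arrays without LIF lay above all 3 with LIF for 4 members (Cdc20, Cdk19, Kif4 and Tacc3) and below them for 7 (Cdc27, Cdk7, Cenpe, Cenpm, Kif18b, Kif21b and Orc3). These are 6.9% and 12.1% of the members, against 7.95% of all spots above and 8.04% below. Kif18b lay at 16.32 to 16.37 without LIF and 16.93 to 17.05 with LIF. Whether the scale of these arrays has a part in this was not tested.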

How the data were processed

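The deposited table holds linear spot intensities, 1 column per sample; per the labels' protocols the authors extracted RNA with Tripure, treated it with DNase, labelled cDNA with 33P, hybridized Resgen filters and quantified spots with Imagene. No source used here gives the background correction or scaling, and the lowest value on 37 arrays was 7675. Spots were named from the platform annotation (3420 with 1 gene, 98 with several, 2242 with none), with 3346 symbols updated by gene identifier through the GRCm38.p6 annotation.

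Quantile normalization of all 40 arrays was followed by log2 of the value plus 36370, the 10th percentile. No filter on low values was used, so all 58 members were tested. One fit of 14 groups in limma 3.58.1 (R 4.3.3; 25 residual degrees of freedom) gave two-sided p-values for 10 comparisons, adjusted by Benjamini-Hochberg over 5760 spots and called under 0.05. The test was tried on simulated data. Whether a group's samples are separate cultures or animals is not stated in the labels. The p-values therefore reflect only the spread among the samples within groups, possibly a technical one, and not the spread among groups. The number of arrays limits the precision.

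Members, lists, groups and tests were chosen with earlier results of these data known. Every member may be named; full statistics go to called members and to Mki67, Pcna, Ezh2 and Tacc3, and examples beyond these were picked after their values were seen. Stroma-vascular and adipocyte samples carry the same replicate numbers (correlation of deviations 0.259, 0.102 and 0.386). The sample titles do not say that these numbers mark pairs, and a replicate block there left 0 members called. Alternatives were median and no scaling, background subtraction (each array's 5th percentile), 4 times the offset, only the compared groups, bright spots only, leaving out the ES arrays without LIF, a trended robust variance, averaging a gene's spots, both 3T3-L1 samples separately, a replicate block and leaving out each sample. Removal of a running median over 101 rows, leaving out each differentiated group and the difference of 2 effects were added after seeing the data. Figures were drawn with matplotlib 3.10.9.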

Additional observations from a re-analysis of the deposited data

Results flagged for a closer look

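With 4 preadipocyte lines as samples, 4 of the 58 members had a line far from the others by Dixon's criterion. Chance gives about 1 in 20, so this count is near that of chance. The share over all spots was not computed. Ccnd3 was at 17.33 in Hgfu, against 16.77 in the nearest line, and Cdca7l at 16.48 in Hgfu, against 16.26. Kif20a was at 16.87 in 3T3-F442A, against 16.59 in the nearest line, so that this line widens the gap between preadipocytes and adipocytes. Kif21b, a neuronal transport kinesin, was at 16.54 in Ob1774, against 16.10. No cause was tested, and other groups of fewer than 4 samples were not examined.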

How the results depend on the processing

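The called members depended most on scaling. Against 7 members in differentiated cells and tissues, 3 were called with median scaling, 0 without scaling and 4 with either inguinal adipocytes or tibialis left out of the mean; leaving out 1 sample gave 5 to 7. Against 1 member in inguinal adipocytes over preadipocyte lines, 0 were called with median scaling, without scaling, with 4 times the offset and with only the compared groups, and 0 to 1 without 1 sample. Against 4 in tibialis over C2C12, 1 was called with median scaling and 1 without scaling, Cdca7l being higher in both, and 2 to 4 without 1 sample. In 3T3-F442A cells over preadipocyte lines, leaving out 1 sample gave 0 to 1 call, the call being made without the Hgfu line or without day 7 replicate 3. The other 6 comparisons had 0 calls under every alternative run. The causes were not tested.

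Some directions turned. Tacc3 in differentiated cells and tissues had 0.0187 with median scaling, 0.0875 without scaling, 0.0189 without C2C12 day 7, 0.0015 without tibialis, and -0.0353 to 0.0101 without 1 sample. Ezh2 had -0.0198 after removal of a local trend, -0.0057 without 3T3-F442A day 7, -0.0138 without tibialis, and -0.0103 to 0.0482 without 1 sample. Kif18b in tibialis, called lower at -0.86, had 0.0791 without scaling, a setting in which the median of all spots moved by 0.94. Mki67 lost its call with median scaling, without scaling, with background subtraction, after removal of a local trend and without inguinal adipocytes or tibialis. Cdca7l lost its call in differentiated cells and tissues without scaling, with background subtraction and without tibialis. With the ES arrays without LIF left out, Cdc27 (adjusted p = 0.0511) and Mad2l1 (adjusted p = 0.0548) lost their calls in that comparison. In the same setting Kif18b lost its call in tibialis over C2C12 (adjusted p = 0.0595). Pcna passed after removal of a local trend (-0.26, adjusted p = 0.0202). In that setting Cdc27 lost its call (-0.10, adjusted p = 0.167) and Cenpm kept its call at -0.15 (adjusted p = 0.0495). Kif20a, Cenpx and Mad2l1 also kept theirs, Cenpx at -0.37 (adjusted p = 9.11e-04) and Mad2l1 at -0.26 (adjusted p = 0.00239). Background subtraction enlarged values, Kif20a to -1.69 and Cdca7l to 0.95 in differentiated cells and tissues. The Cdca7l, Cdc27 and Tacc3 spots had no value with bright spots only, being dim.

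Counts over all spots moved more. They ran from 2 to 552 over the alternatives in differentiated cells and tissues (412 as reported), 0 to 27 in C2C12 (13), 0 to 14 in 3T3-F442A (9), 4 to 177 in inguinal adipocytes (134) and 0 to 28 in stroma-vascular cells over preadipocyte lines (11). They ran from 1 to 112 in stroma-vascular cells over adipocytes (36), 5 to 226 in peritoneal macrophages (167), 5 to 165 in tibialis (144), 0 to 28 in ES cells (13) and 2 to 96 in macrophage lines (62). Without 1 sample the C2C12 count ran from 3 to 154. Replicate numbers of C2C12, tibialis and macrophage samples share only a number, with correlations of deviations from -0.0993 to 0.150. With a replicate block the members called were 3 in tibialis over C2C12, Kif18b being lost (adjusted p = 0.0501), and 0 in C2C12, stroma-vascular cells over adipocytes and macrophages; all spots called were 27 in C2C12.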
